A study of Mus musculus with 8 samples.

Results

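The inhibitory checkpoint receptors of mouse CD8+ T cells were read from a deposited expression table by gene symbol. The 10 genes *Pdcd1*, *Ctla4*, *Lag3*, *Havcr2*, *Tigit*, *Cd160*, *Btla*, *Lair1*, *Cd200r1* and *Cd274* were all present among its 22520 genes. *Cd274* encodes PD-L1, the ligand of PD-1, so the set holds a ligand beside the receptors. Splenic CD8+ T cells of wild-type mice were kept under persistent TCR stimulation with anti-CD3/CD28 antibodies and IL-2 for 6 days, a culture used to drive exhaustion differentiation without antigen or tumor. From day 3, 4 cultures received 40 µM DADA (diisopropylamine dichloroacetate, an inhibitor of the pyruvate dehydrogenase kinases, PDKs) and 4 received the solvent DMSO. The study calls the 4 libraries of a group biological replicates, without saying whether they came from separate mice, so p-values measure the spread between these libraries. No unstimulated cells were part of the comparison.

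Checkpoint receptors lower the signal that a T cell receives through its antigen receptor and through CD28. Some compete with an activating receptor for a shared ligand, as CTLA-4 competes with CD28, and others recruit phosphatases or other inhibitory proteins through their cytoplasmic tails, as PD-1 and BTLA do. Activation induces most of them for a short time, whereas chronic antigen exposure keeps several high together, and antibodies that block PD-1, PD-L1, CTLA-4 or LAG-3 are used to treat cancer.

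Expression was given in FPKM, fragments counted per kilobase of transcript and scaled to library size, which allows levels of different genes to be compared. Differences were tested with limma on log2(FPKM + 1) over 10666 genes, those with 1 FPKM or more in 4 or more libraries, and a gene was called at an adjusted p under 0.05 (Benjamini-Hochberg). A log2 fold change on this scale understates the change of genes of low level. Total FPKM was 450473 to 456939 in the DMSO libraries and 438299 to 449480 in the DADA libraries. At the best depth found for each library, only 35.53% to 42.07% of the low values came within 0.1 of a whole fragment. Chance gives 20% at a depth fixed in advance, and choosing the best depth raises that share. The depth is therefore unknown, and no count test was run. Genes of the CD8 T cell list were abundant, with a summed level of 674 to 680 FPKM with DMSO and 776 to 805 FPKM with DADA, and *Cd4* stayed under 1 FPKM in every library.

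With DADA, 7 of the 8 members that passed the filter fell and *Cd160* rose. Among all genes tested, 66.2% were called, 35.3% lower and 30.9% higher, so a call by itself sets no member apart from the background. The median log2 fold change was -0.76 over the 8 members tested and -0.02 over all genes tested. *Lag3* and *Ctla4* had the 4th and the 10th most negative fold changes of the 10666 genes, whereas *Havcr2* and *Btla* ranked 1645 and 3000. By size of change in either direction, *Lag3* ranked 53 and *Ctla4* ranked 110. *Cd200r1* and *Lair1* stayed under the filter. In bulk RNA, fewer cells that express a gene and less RNA per cell cannot be told apart.

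**Figure D1:**
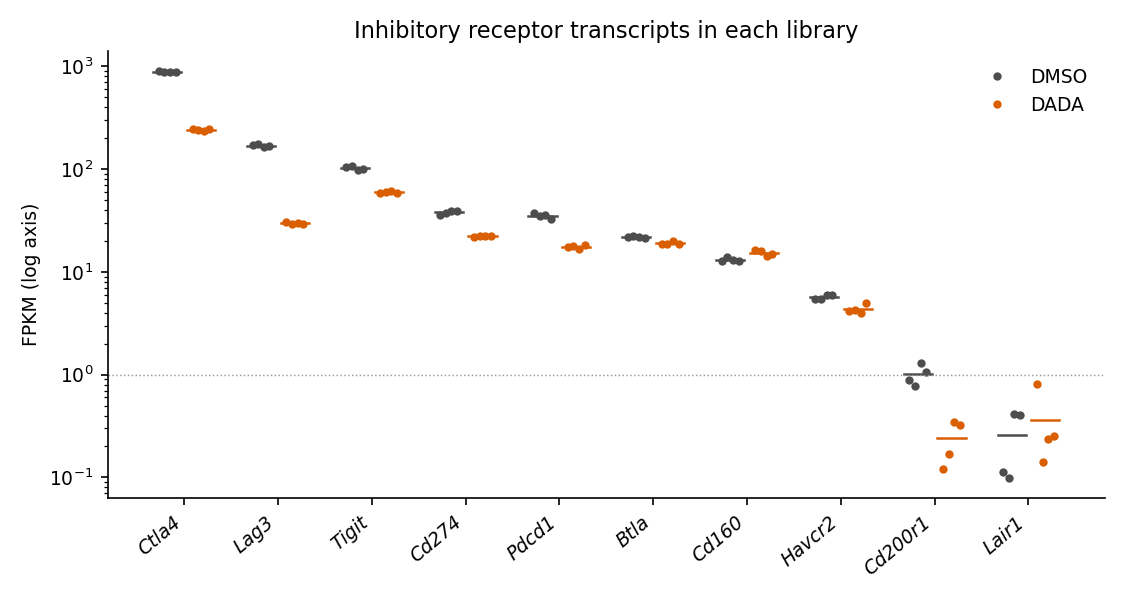
FPKM of the 10 genes (log axis) in the 4 DMSO and the 4 DADA libraries, 1 point per library with a line at each group's mean and a dotted line at 1 FPKM. The DADA points of *Ctla4*, *Lag3*, *Tigit*, *Cd274* and *Pdcd1* lie well below the DMSO points, those of *Btla* and *Havcr2* slightly below, those of *Cd160* above, and *Lair1* and *Cd200r1* lie near or under 1 FPKM.

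The promoters of the 4 members that fell by over 0.7 on the log2 scale and have an entry in the reference table are shown. The NFAT core was marked because NFAT, the factor that calcineurin activates downstream of the antigen receptor, is known to act at *Pdcd1*. The sources used here do not say where in *Pdcd1* it acts, so the marked copies are not to be read as that site. Each sequence covers the 250 bases before the RefSeq start of the gene in build GRCm38.p6, read 5′ to 3′ on the gene's strand. *Pdcd1* is at chr1:94052554-94052803 on the minus strand, *Ctla4* at chr1:60908775-60909024 on the plus strand, *Tigit* at chr16:43664185-43664434 on the minus strand and *Cd274* at chr19:29367188-29367437 on the plus strand. Capitals mark the NFAT core, GGAAA or TTTCC when read from the other strand, as a match of letters only. Whether NFAT binds at the marked places, in *Pdcd1* or the other genes, was not tested.
Pdcd1: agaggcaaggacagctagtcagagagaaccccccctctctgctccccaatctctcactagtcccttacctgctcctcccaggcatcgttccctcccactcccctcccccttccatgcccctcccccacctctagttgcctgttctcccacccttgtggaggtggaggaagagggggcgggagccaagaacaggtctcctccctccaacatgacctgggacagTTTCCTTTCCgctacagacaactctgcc
Ctla4: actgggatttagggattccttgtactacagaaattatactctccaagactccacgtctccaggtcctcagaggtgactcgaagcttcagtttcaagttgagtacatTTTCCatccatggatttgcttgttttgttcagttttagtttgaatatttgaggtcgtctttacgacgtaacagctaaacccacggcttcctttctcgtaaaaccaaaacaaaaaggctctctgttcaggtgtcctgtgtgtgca
Tigit: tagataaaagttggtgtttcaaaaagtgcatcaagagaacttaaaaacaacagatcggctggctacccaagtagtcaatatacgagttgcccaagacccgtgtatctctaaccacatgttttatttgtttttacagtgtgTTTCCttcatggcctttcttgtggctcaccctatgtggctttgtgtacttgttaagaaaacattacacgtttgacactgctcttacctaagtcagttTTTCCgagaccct
Cd274: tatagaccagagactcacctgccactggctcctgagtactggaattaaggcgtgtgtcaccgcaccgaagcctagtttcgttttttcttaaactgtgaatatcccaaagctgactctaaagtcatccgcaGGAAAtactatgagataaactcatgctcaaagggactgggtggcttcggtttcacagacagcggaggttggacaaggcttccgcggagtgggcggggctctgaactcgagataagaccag
The core occurred at 28 and 23 bases before the start in *Pdcd1*, as adjoining copies, at 144 bases in *Ctla4*, at 110 and 13 bases in *Tigit* and at 120 bases in *Cd274*. Of the 8 members with an entry 6 hold it. It is short and common, and 55.6% of the 32851 promoters in the table hold it in the same window. Beside the 4 printed genes, *Lair1* had a core and *Cd160* had one before 1 of its 2 starts, and *Btla* and *Havcr2* had none. Whether the core bears on the change of any member was not tested. None of the 4 printed windows held the AP-1 motif TGANTCA (6.75% of all promoters) or the NR4A motif AAAGGTCA (1.34%) on either strand. The HIF core ACGTG (16.6%) occurred in 4 of the 8 members with an entry, *Ctla4*, *Tigit*, *Btla* and *Havcr2*, and the AP-1 motif occurred in *Havcr2*. *Lag3* and *Cd200r1* have no entry in the table.

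*Ctla4* encodes the receptor that takes CD80 and CD86 away from CD28 and was the most abundant member. It measured 899, 886, 874 and 888 FPKM in the DMSO libraries 1 to 4 and 246, 239, 235 and 246 FPKM in the DADA libraries 1 to 4. The groups did not overlap, and the libraries within each differed by a few percent of the gap between them. The mean fell from 887 ± 10.0 to 242 ± 5.27 FPKM (SD, n = 4 libraries each), 3.67-fold lower, with a log2 fold change of -1.87 (SE 0.0215, 95% interval -1.92 to -1.82, limma adjusted p = 3.42e-12). By mean FPKM, *Ctla4* ranked 76 among all genes with DMSO and 232 with DADA, so it remained an abundant transcript.

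*Lag3* encodes the receptor that binds MHC class II and showed the largest change of the set. Its level was 173, 174, 163 and 166 FPKM with DMSO and 30.3, 29.0, 29.8 and 29.3 FPKM with DADA. All DADA libraries lay within a narrow band far below the lowest DMSO library. The mean fell from 169 ± 5.52 to 29.6 ± 0.584 FPKM, 5.71-fold lower, with a log2 fold change of -2.47 (SE 0.0281, 95% interval -2.54 to -2.41, limma adjusted p = 3.42e-12). *Lag3* went from rank 336 to rank 2722 by mean FPKM.

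*Pdcd1* encodes PD-1, which recruits the phosphatase SHP-2 to the antigen receptor and CD28. The DMSO libraries held 37.2, 35.1, 35.5 and 32.5 FPKM and the DADA libraries 17.4, 17.8, 16.8 and 18.1 FPKM, so that the groups were well apart. The mean fell 2.0-fold, from 35.1 ± 1.96 to 17.5 ± 0.523 FPKM, with a log2 fold change of -0.96 (SE 0.0417, 95% interval -1.06 to -0.87, limma adjusted p = 2.48e-08). Its ligand gene *Cd274* (PD-L1) had 36.1, 37.4, 38.9 and 39.1 FPKM with DMSO and 21.6, 22.5, 22.2 and 22.3 FPKM with DADA. It fell 1.71-fold, from 37.9 ± 1.42 to 22.2 ± 0.402 FPKM, with a log2 fold change of -0.75 (SE 0.0317, limma adjusted p = 2.17e-08). The genes for this receptor and its ligand were therefore both lower in every DADA library than in any DMSO library. With DMSO, the ranges of *Pdcd1* and *Cd274* overlapped, and with DADA *Cd274* was above *Pdcd1* in every library.

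*Tigit* encodes a receptor for CD155 that competes with the activating receptor CD226. It measured 105, 107, 97.6 and 99.5 FPKM with DMSO and 58.6, 59.4, 61.6 and 58.2 FPKM with DADA, with no overlap. The mean fell 1.72-fold, from 102 ± 4.46 to 59.5 ± 1.52 FPKM, with a log2 fold change of -0.77 (SE 0.0336, limma adjusted p = 2.51e-08). With DADA, *Tigit* stood above *Lag3*, whereas with DMSO *Lag3* stood above *Tigit*, in each case in every library.

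*Havcr2* encodes TIM-3, a receptor for galectin-9, CEACAM1 and phosphatidylserine that is used as a marker of terminal exhaustion, and was scarce in both groups. Its 4 DMSO libraries held 5.42, 5.45, 5.93 and 5.94 FPKM and its 4 DADA libraries 4.18, 4.30, 3.96 and 5.00 FPKM. The highest DADA library came close to the lowest DMSO library without reaching it. The mean fell 1.30-fold, from 5.68 ± 0.288 to 4.36 ± 0.447 FPKM, with a log2 fold change of -0.32 (SE 0.0639, 95% interval -0.46 to -0.18, limma adjusted p = 0.00134).

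*Btla* and *Cd160* encode receptors for the same ligand, HVEM, and went in opposite directions. *Btla* held 21.6, 22.4, 21.8 and 21.2 FPKM with DMSO and 18.7, 18.6, 20.04 and 18.8 FPKM with DADA. It fell 1.14-fold, from 21.8 ± 0.482 to 19.0 ± 0.689 FPKM, with a log2 fold change of -0.19 (SE 0.0329, 95% interval -0.26 to -0.11, limma adjusted p = 6.51e-04). For *Cd160*, the DMSO libraries held 12.8, 13.8, 13.1 and 12.7 FPKM and the DADA libraries 16.3, 15.8, 14.3 and 14.96 FPKM. The groups of both genes were apart by less than the range within the DADA group. *Cd160* rose 1.17-fold, from 13.1 ± 0.505 to 15.3 ± 0.874 FPKM, with a log2 fold change of 0.21 (SE 0.0452, 95% interval 0.11 to 0.31, limma adjusted p = 0.00214). The 5 listed genes of the CD8 T cell list (*Cd3d*, *Cd3e*, *Cd3g*, *Cd8a* and *Cd8b1*) all rose, with a median log2 fold change of 0.28. When each library was scaled to these genes, an alternative chosen after the data were seen, *Cd160* was at -0.013 (limma adjusted p = 0.792) and the 7 members that fell still fell. That scaling moved the median of all genes by -0.21 and the share of calls that were lower from 53.3% to 80.4%.

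The remaining members were at the limit of what these libraries resolve. *Cd200r1*, the receptor for CD200, held 0.887, 0.782, 1.30 and 1.05 FPKM with DMSO and 0.121, 0.170, 0.347 and 0.321 FPKM with DADA, with no overlap between the groups. Its log2(FPKM + 1) differed by -0.69, with a two-sided p of 0.0286 when all 70 ways to assign libraries were enumerated (exact permutation test), the smallest p this design allows. The size of this difference depends on the pseudocount, and it was -1.74 with a pseudocount of 0.1 in place of 1. *Lair1*, a collagen receptor, held 0.113, 0.0985, 0.411 and 0.408 FPKM with DMSO and 0.815, 0.142, 0.238 and 0.253 FPKM with DADA. These groups overlapped, and the difference of 0.10 was not detectable at this level (exact permutation p = 0.629). For each of the 8 members tested with limma the groups did not overlap, which held for 60.6% of all genes tested.

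**Figure D2:**
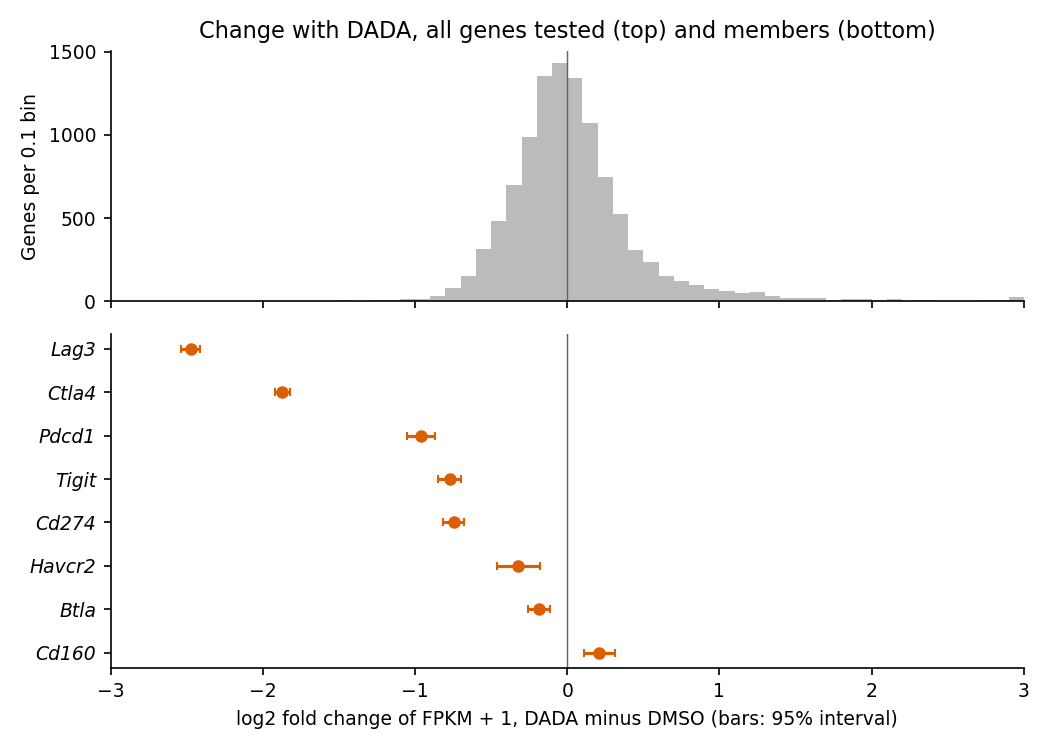
Log2 fold change of FPKM + 1, DADA minus DMSO, as a histogram of the 10666 genes tested (top, genes per 0.1 bin, with genes beyond the axis counted in the outermost bins) and for the 8 members tested (bottom, points with 95% intervals). The bulk of genes lies around 0, whereas *Lag3* at -2.47 and *Ctla4* at -1.87 lie in the far lower tail and *Cd160* at 0.21 is the member to the right of 0.

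Summed over the 10 genes, checkpoint receptor transcripts fell to about 32.2% of the DMSO level. The sums were 1291, 1283, 1252 and 1266 FPKM with DMSO and 414, 407, 405 and 413 FPKM with DADA. *Ctla4* made up most of both sums. Without it, the sum went from 386 ± 9.56 to 168 ± 0.986 FPKM, 43.5% of the DMSO level. The makeup shifted as well, with *Ctla4* going from 69.7% ± 0.424 to 59.0% ± 0.648 of the sum and *Lag3* from 13.3% ± 0.264 to 7.23% ± 0.142. The share of *Tigit* went from 8.03% to 14.5%, that of *Btla* from 1.71% to 4.64% and that of *Cd160* from 1.03% to 3.74%, although *Tigit* and *Btla* fell in level. A share rises when the other genes of the sum fall more, and these shares were not tested.

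**Figure D3:**
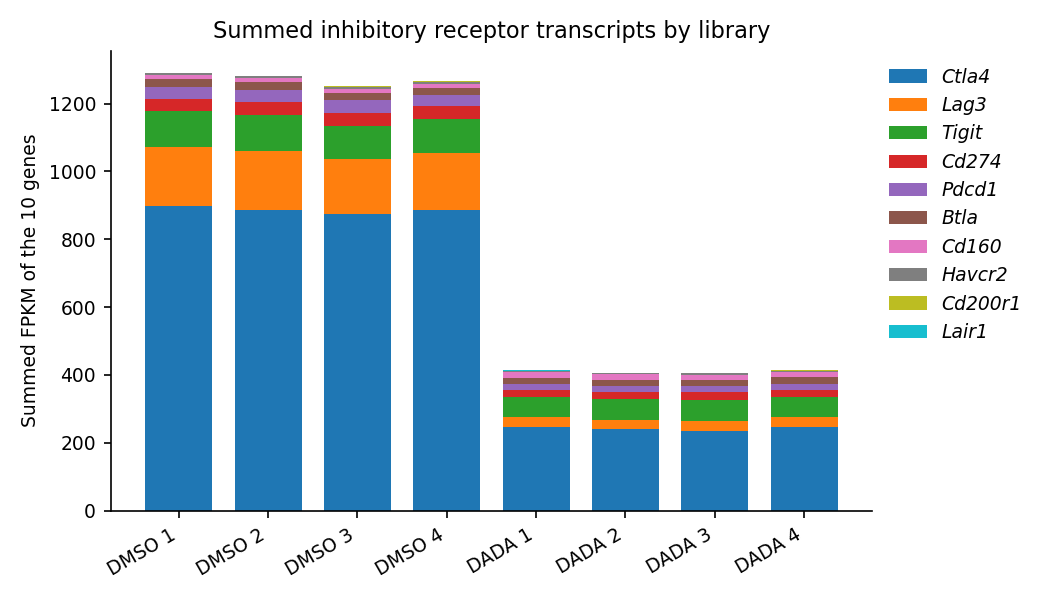
Summed FPKM of the 10 genes in each of the 8 libraries, stacked by gene. The 4 DMSO bars reach 1252 to 1291 FPKM and the 4 DADA bars 405 to 414 FPKM, and *Ctla4* is the tallest segment in each bar.

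Receptors that share a ligand were then set against each other within each library, as the difference of their log2(FPKM + 1). The log2 ratio of *Ctla4* to *Cd28*, which both bind CD80 and CD86, went from 3.82 ± 0.0418 with DMSO to 1.45 ± 0.0434 with DADA, a difference of -2.37 (two-sided exact permutation p = 0.0286, adjusted p = 0.0358 over 5 ratios). *Cd28*, the costimulatory receptor, itself rose from 61.7 ± 1.46 to 87.7 ± 1.31 FPKM (log2 fold change 0.50, limma adjusted p = 4.86e-08), so both genes contributed to the ratio. The ratio of *Btla* to *Cd160* went from 0.69 ± 0.0241 to 0.29 ± 0.121, a difference of -0.40 (exact permutation p = 0.0286, adjusted p = 0.0358). For *Tigit* against *Cd226*, the activating receptor for CD155, the ratio went from 2.75 ± 0.109 to 2.44 ± 0.121, and the groups overlapped (difference -0.31, exact permutation p = 0.0571, adjusted p = 0.0571). *Cd226* fell as well, from 14.3 ± 0.924 to 10.2 ± 0.921 FPKM (log2 fold change -0.46, limma adjusted p = 1.38e-04). The ratio of *Pdcd1* to *Lag3*, which share no ligand, went from -2.24 ± 0.0742 to -0.73 ± 0.0619, a difference of 1.51 (exact permutation p = 0.0286, adjusted p = 0.0358), since *Lag3* fell more. *Lag3* against *Cd4* differed by -2.40 with the same p, but *Cd4* lay between 0.144 and 0.411 FPKM, so this ratio adds little to the change of *Lag3* itself, which was -2.47. A p of 0.0286 is the smallest this design allows and means that the groups did not overlap. Taken singly, 60.6% of all genes tested did not overlap either, and no such share was computed for ratios.

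**Figure D4:**
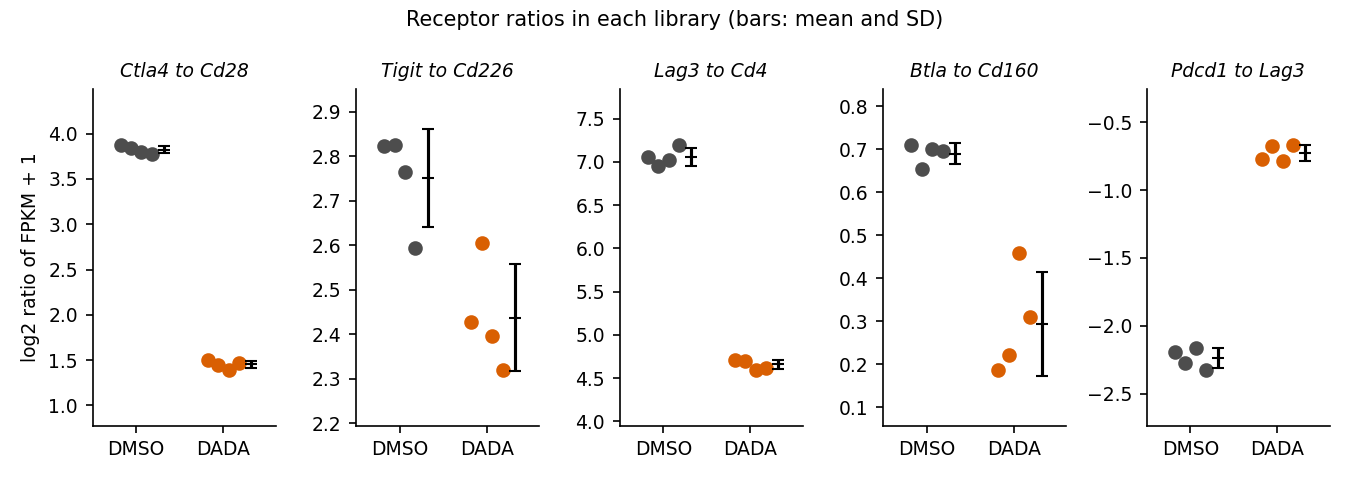
Log2 ratio of FPKM + 1 for the 5 receptor pairs, 1 panel per pair with its own axis, with points for the 4 DMSO and 4 DADA libraries and the mean and SD beside them. The groups are apart in each panel except that of *Tigit* to *Cd226*, where they overlap.

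Among the ligands and counter-receptors of the set, more genes rose than fell. Of 20 listed genes 12 were tested, of which 3 fell, 7 rose and 2 were not called, with a median log2 fold change of 0.22. The counts of this and each later list are to be read beside all genes tested, with 35.3% called lower and 30.9% higher. *H2-Ab1*, a chain of the MHC class II ligand of LAG-3, rose from 3.48 ± 0.496 to 44.0 ± 2.71 FPKM (log2 fold change 3.33, limma adjusted p = 2.94e-10). Its partner chain *H2-Aa*, named after its values were seen, averaged 0.0346 FPKM with DMSO and 0.102 FPKM with DADA. *Lgals3*, the gene of galectin-3, another LAG-3 ligand, rose from 55.2 ± 2.82 to 203 ± 9.84 FPKM (log2 fold change 1.86, limma adjusted p = 2.57e-10). *Ceacam1*, a TIM-3 ligand and an inhibitory receptor itself, fell from 3.28 ± 0.455 to 1.19 ± 0.25 FPKM (log2 fold change -0.97, limma adjusted p = 1.67e-05). *Lgals9*, the gene of galectin-9, another TIM-3 ligand, was named after its values were seen. It rose from 34.9 ± 1.31 to 61.5 ± 3.38 FPKM (log2 fold change 0.80, limma adjusted p = 9.98e-08). *Cd274*, counted in this list too, had the next largest fall. *Hmgb1*, named after its values were seen, was the remaining gene that fell, from 89.2 ± 5.12 to 63.9 ± 11.1 FPKM (log2 fold change -0.49, limma adjusted p = 0.00154).

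A list of costimulatory and related activating molecules was split, with 3 of 6 tested genes lower and 3 higher and a median of -0.06. Not every gene of it shares a ligand with the set, since *Icos* and *Crtam* have ligands of their own. *Tnfsf14*, the gene of LIGHT, which binds HVEM, rose from 4.67 ± 0.355 to 11.5 ± 1.34 FPKM (log2 fold change 1.14, limma adjusted p = 7.78e-07), and *Cd28* was the next. *Crtam*, a receptor for the adhesion molecule CADM1, fell from 26.3 ± 1.01 to 19.3 ± 0.156 FPKM (log2 fold change -0.43, limma adjusted p = 1.11e-06), close to *Cd226*.

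Genes that relay or restrain the signal showed small changes in both directions. All 16 were tested, 5 fell, 5 rose and 6 were not called, with a median of 0.02. These counts are near the shares over all genes tested, 35.3% lower and 30.9% higher. *Cblb*, a ubiquitin ligase that limits T cell activation, rose from 69.4 ± 1.06 to 97.9 ± 1.51 FPKM (log2 fold change 0.49, limma adjusted p = 2.75e-08), and *Ptpn22*, a phosphatase acting on LCK, rose by 0.37. The adaptors *Dok2* and *Pag1* fell by 0.38 and by 0.34 on the log2 scale. Among 15 genes for trafficking and turnover of the receptors, 7 fell, 3 rose and 5 were not called, with a median of -0.11. The largest of these changes were -0.26 for *Cops5*, a subunit of the COP9 signalosome, and -0.20 for *Lrba*, which protects CTLA-4 from lysosomal degradation, beside 0.18 for the ubiquitin ligase *Itch* and 0.18 for the sheddase *Adam17*.

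Most of the tested transcription factors tied to the receptor genes rose. Of 27 listed genes 23 were tested, 17 rose and 6 fell, with a median of 0.37. *Prdm1*, the gene of the repressor BLIMP-1, rose from 0.661 ± 0.0853 to 7.56 ± 0.806 FPKM (log2 fold change 2.36, limma adjusted p = 2.18e-09). *Jun*, an AP-1 subunit, rose from 7.0 ± 0.29 to 20.1 ± 0.702 FPKM (log2 fold change 1.40, limma adjusted p = 1.06e-09). *Nr4a1*, an orphan nuclear receptor induced by antigen receptor signals, fell from 125 ± 1.61 to 55.8 ± 2.27 FPKM (log2 fold change -1.15, limma adjusted p = 5.70e-10). *Id3*, an inhibitor of E proteins, fell from 10.2 ± 1.02 to 4.48 ± 0.532 FPKM (log2 fold change -1.03, limma adjusted p = 2.26e-06). *Nfatc1* and *Nfatc2* were named after their values were seen, for the motif shown above. *Nfatc1* rose from 22.3 ± 1.07 to 29.2 ± 0.393 FPKM (limma adjusted p = 7.20e-06). *Nfatc2* rose from 7.38 ± 0.213 to 9.08 ± 0.313 FPKM (limma adjusted p = 1.77e-04). NFAT activity was not measured.

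Other inhibitory molecules went in both directions. The list holds mostly receptors but also the ectoenzymes *Entpd1* and *Nt5e* and the ligand *Cd47*, and of its 25 genes 15 were tested, 8 rose, 5 fell and 2 were not called, with a median of 0.22. *Il10ra*, the ligand-binding chain of the IL-10 receptor, rose from 11.1 ± 0.448 to 42.3 ± 0.845 FPKM (log2 fold change 1.84, limma adjusted p = 5.20e-11), and *Lilrb4a*, an ITIM receptor, rose from 21.1 ± 0.953 to 48.8 ± 3.95 FPKM (log2 fold change 1.17, limma adjusted p = 4.85e-08). *Entpd1*, the gene of the ectonucleotidase CD39, fell from 3.58 ± 0.0875 to 1.64 ± 0.101 FPKM (log2 fold change -0.80, limma adjusted p = 3.58e-07), after *Ceacam1* the largest fall of the list.

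**Figure D5:**
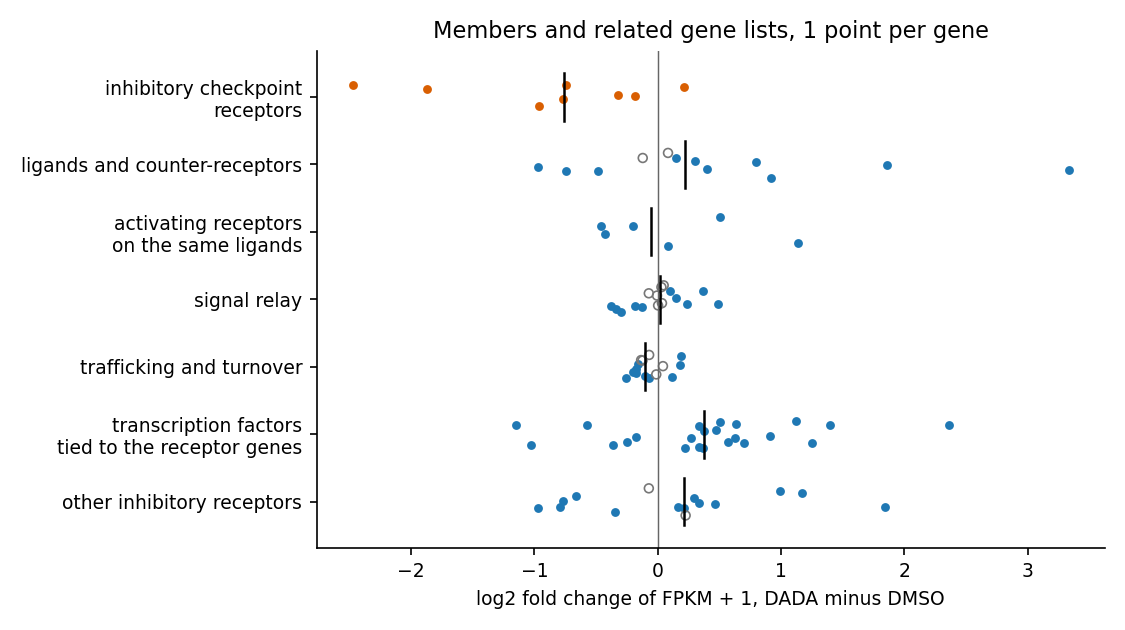
Log2 fold change of FPKM + 1, DADA minus DMSO, for the tested genes of the checkpoint receptor set and of each related list (labelled by its working name), 1 point per gene, filled where the gene was called and hollow where it was not, with a line at each median. The checkpoint receptors lie mostly left of 0, with a median of -0.76, whereas the transcription factor list lies mostly right of it, with a median of 0.37.

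Genes next to the members in the annotation, by their order on the chromosome, rose more often than they fell. Of the 40 neighbours (2 on either side of each member) 35 were listed and 22 were tested, of which 12 rose, 5 fell and 5 were not called, with a median of 0.09. The shares over all genes tested were 30.9% higher and 35.3% lower. Next to *Lag3*, *Ptms* rose from 28.4 ± 2.15 to 57.8 ± 1.86 FPKM (log2 fold change 1.00, limma adjusted p = 5.79e-08) and *Mlf2* stood at -0.04 (limma adjusted p = 0.434). *Gpr162*, beyond *Cd4*, rose by 0.27. The tested neighbours of *Ctla4*, *Cd28* at 0.50, *Icos* at 0.08 and *Raph1* at 0.25, rose, and the other neighbour, *Pard3b*, was under the filter. *Pdcd1lg2*, the gene of PD-L2, which lies beside *Cd274*, had a log2 fold change of 0.08 (95% interval -0.04 to 0.21, limma adjusted p = 0.211), while *Plgrkt* on the other side of *Cd274* fell by 0.11 and *Ric1* rose by 0.13. Next to *Pdcd1*, *Fam174a* fell by 0.33 on the log2 scale and *St8sia4* rose by 0.83. Around *Btla*, *Cd200* rose by 0.40, *Slc35a5* rose by 0.26 and *Atg3* fell by 0.20. Around *Cd160*, *Polr3c* rose by 0.08, *Rnf115* fell by 0.11 and *Gpr89* was not called, and *Med7* near *Havcr2* was not called either. Of the neighbours tested, *Qtrt2* near *Tigit* had the largest fall, at -0.67 (limma adjusted p = 1.14e-06).

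Markers of other cells that could carry these transcripts were low. The summed level of the 7 myeloid markers was 3.52 to 3.99 FPKM with DMSO and 5.24 to 5.93 FPKM with DADA, of which *Cd68* was the 1 gene above 1 FPKM, and *Csf1r* and *Adgre1* were at 0 in every library. The 5 dendritic cell markers summed to 3.76 to 4.82 FPKM with DMSO and 1.96 to 2.53 FPKM with DADA, nearly all of it *Zbtb46*, and *Flt3*, *Xcr1* and *Siglech* were at or near 0. The 5 B cell markers summed to 2.62 to 3.57 and 2.37 to 3.09 FPKM, nearly all of it *Cd79b*, with *Ms4a1* at or near 0 throughout. The sums were at most 0.718 FPKM for the CD4 T cell list, 0.346 FPKM for the NK cell list, 0.169 FPKM for the erythroid list and 0.113 FPKM for *Sox13*, the 1 gene listed of the gamma delta T cell list. The part of the cells behind *Cd68*, *Zbtb46* and *Cd79b* in the low levels of *Cd200r1*, *Lair1* and *Havcr2* was not tested.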

How the data were processed

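Bulk RNA-seq libraries of 8 CD8+ T cell cultures, 4 with DMSO and 4 with DADA, were grouped by their titles. The values deposited by the authors are FPKM for each gene in each library, and how these were scaled further is not given in the sources used here. Per the submitters' processing notes, the tools included HISAT2 2.0.5, StringTie 1.3.3, SAMtools 0.1.18, Picard 1.41, FastQC 0.11.9 and CASAVA 1.8.2. The notes name both GRCm39 and GRCh38 without a role, so no coordinates are given in the build of the deposited values, and promoter sequences with their coordinates and gene order come from RefSeq GRCm38.p6, matched by symbol for 8 of the 10 members. The labels and the paper name different library kits, and whether counting used strand is not given.

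Genes with at least 1 FPKM in at least 4 of 8 libraries were tested with limma 3.58.1 in R 4.3.3 on log2(FPKM + 1), two-sided, with the trend option of eBayes, and p-values were adjusted by Benjamini-Hochberg over all 10666 genes. Exact permutation tests over 70 assignments were used for the receptor ratios and for members under the filter. The code was tested on simulated data. The members and gene lists were chosen with earlier results of these data known. Named were the 10 members, the 2 called genes with the largest change in each direction per list, the genes of the ratios and the neighbours of called members (those tested, and *Pard3b*). *H2-Aa*, *Lgals9*, *Hmgb1*, *Nfatc1* and *Nfatc2* were named after their values were seen. The genes most alike to *Lag3* and *Pdcd1* by correlation, also planned, are left out because the libraries form 2 clusters. Libraries sharing a replicate number did not deviate together (r = 0.0953, -0.12, -0.0877 and 0.0751 for numbers 1 to 4), so no pairing was used. Alternatives were another pseudocount, other filters and scalings, limma without the trend, a replicate block and each library left out, and, chosen after the data were seen, scaling to CD3 and CD8 genes. FPKM carry no depth, so precision was judged from the spread between libraries.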

Additional observations from a re-analysis of the deposited data

Results flagged for a closer look

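Of 32 groups of 4 libraries checked, 2 held a library far from the others by Dixon's criterion at the 95% level, which chance passes in about 1 of 20 groups. For *Btla* with DADA, library 3 at 20.04 FPKM stood apart from the others at 18.6 to 18.8 FPKM (gap to range 0.857), and it was still below every DMSO library. For *Lair1* with DADA, library 1 at 0.815 FPKM stood apart from 0.142 to 0.253 FPKM (gap to range 0.835), and without it the difference of *Lair1* changed sign.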

How the results depend on the processing

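The count of members called lower was 7 or 8 under all 17 alternatives, the 8th being *Cd200r1* when no filter on low values was set, and *Lag3* ranged from -2.71 to -2.44 and *Ctla4* from -2.11 to -1.83 on the log2 scale. The median over the members tested, -0.76, was -0.72 without the filter, -0.74 as TPM, -0.73 with median-ratio scaling, -0.72 with quantile normalization and -0.99 when scaled to CD3 and CD8 genes, and -0.77 to -0.75 with each library left out. Under that last scaling the count of members higher was 0 and *Cd160* stood at -0.013. *Lair1* ranged from -0.046 to 0.18 with each library left out, and the negative value came without DADA library 1. With the replicate number as a block, 6995 genes were called, against 7064 without it, and every member tested kept its call, for example *Cd160* at 0.21 (limma adjusted p = 0.00415). In how they deviated, no library correlated over 0.134 with a library of another number. With 1 library left out, no exact permutation test was run, so the ratios then have no call. Members under the filter have no value with the stricter filter, the block or limma without the trend. Genes of the related lists were tested only with the values as deposited.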
